A study of Mus musculus with 48 samples.

Results

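The insulin signaling genes described here were Insr, Igf1r, Irs1, Irs2, Pik3r1, Akt1, Mtor, Rps6kb1, Foxo1 and Foxo3, which were 10 of the 19752 genes with an assigned probe on the mRNA arrays. They were chosen by name, as components of the pathway that the study linked to miR-200b and miR-200c. No cutoff on their values was used, but earlier results of these data were known. Where a gene had more than 1 probe, the one with the brightest mean of the 24 mRNA arrays was read. The 10 genes had 17 probes in all, the probe used was well above background on all 24 arrays for all 10 genes, and the other probes of the 4 genes with more than 1 probe served as a check.

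The samples came from male mice of 2 genotypes. The wild-type (WT) mice were C57BL/6J. The Tg2576 mice, of the strain Tg(APPSWE)2576Kha, are transgenic for a human APP gene bearing the Swedish mutation. A prion promoter from hamster drives the transgene, and amyloid plaques appear as the mice grow older. Animals were 10 or 17 months old, and RNA was taken from the cortex or from the whole brain, which gave 8 groups of 3 mRNA arrays and 8 groups of 3 miRNA arrays, 1 colour and 1 sample each. The labels do not state whether a cortex and a whole brain sample, or an mRNA and a miRNA array, came from the same animal, so the p-values below measure the spread between these samples. In bulk tissue, fewer cells of a type and less RNA per cell cannot be told apart.

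Insulin and insulin-like growth factor 1 bind the receptor tyrosine kinases encoded by Insr and Igf1r, which phosphorylate the adaptors IRS1 and IRS2. These recruit phosphoinositide 3-kinase through its regulatory subunit p85 alpha (Pik3r1), the lipid product activates the kinase AKT1, and AKT1 acts on mTOR and, through it, on the S6 kinase RPS6KB1, which phosphorylates IRS1 at serines and dampens the signal. AKT1 also keeps the transcription factors FOXO1 and FOXO3 out of the nucleus, and active FOXO factors raise transcription of Irs2 and Insr in liver and other tissues. In the brain the pathway is known for its part in neuronal survival, feeding control and synaptic plasticity, and serine-phosphorylated IRS1 is known to accumulate in brains with Alzheimer's disease.

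The study tied these genes to miR-200b and miR-200c, and the mature sequences are given because they show that both miRNAs would read the same target letters. In the RefSeq miRNA table (GRCm38.p6) miR-200b-3p, of 22 bases, lies on the minus strand at chr4:156055685-156055706 and miR-200c-3p, of 23 bases, on the minus strand at chr6:124718324-124718346. Capitals mark the seed, bases 2 to 8, which is AAUACUG in both.
miR-200b-3p: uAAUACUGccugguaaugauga
miR-200c-3p: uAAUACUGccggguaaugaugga
Outside the seed they differ, counted from the 5′ end and with miR-200b first, by U11G and A22G and by the extra base of miR-200c.

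Promoters are given for the members in which a searched motif was present, since several members differed together with age, as described below. The RefSeq promoter table (GRCm38.p6) covers 250 bases before and 50 after each start and held 9 of the 10 members, with 2 starts each for Pik3r1 and Akt1. Insr was not among them. Each promoter was searched on both strands for a FOXO binding motif (GTAAACA or TGTTTAC, in 3.65% of all 32851 promoters), an insulin response element (CAAAACA or TGTTTTG, 6.28%), a cAMP response element (TGACGTCA, 1.79%) and an E-box (CACGTG, 7.15%). Capitals mark the matches.
Irs1, minus strand, chr1:82291390-82291689: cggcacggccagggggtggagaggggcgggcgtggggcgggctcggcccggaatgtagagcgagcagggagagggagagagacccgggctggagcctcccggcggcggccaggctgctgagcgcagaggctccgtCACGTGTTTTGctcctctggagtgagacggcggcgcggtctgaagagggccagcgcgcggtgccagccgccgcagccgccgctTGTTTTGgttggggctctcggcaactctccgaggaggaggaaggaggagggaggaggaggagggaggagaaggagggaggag
Irs2, minus strand, chr8:11008880-11009179: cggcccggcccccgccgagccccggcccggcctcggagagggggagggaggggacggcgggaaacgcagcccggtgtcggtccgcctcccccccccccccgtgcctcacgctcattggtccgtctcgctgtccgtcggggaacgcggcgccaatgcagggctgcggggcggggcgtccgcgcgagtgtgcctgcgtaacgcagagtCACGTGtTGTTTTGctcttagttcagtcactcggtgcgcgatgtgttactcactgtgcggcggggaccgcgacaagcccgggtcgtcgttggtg
Akt1, minus strand, chr12:112674835-112675134: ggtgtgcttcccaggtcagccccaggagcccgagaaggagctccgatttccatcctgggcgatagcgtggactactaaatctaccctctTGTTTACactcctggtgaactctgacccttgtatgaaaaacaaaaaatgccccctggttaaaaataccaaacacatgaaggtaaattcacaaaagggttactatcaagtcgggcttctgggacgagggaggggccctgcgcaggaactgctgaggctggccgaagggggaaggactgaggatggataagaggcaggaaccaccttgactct
The promoters of both insulin receptor substrates held an E-box beside an insulin response element. In Irs1 the E-box began at -115 from the start and the element at -111, so that they shared 2 letters, and another element began at -32. In Irs2 the E-box began at -44 and the element at -37, with 1 letter between them. Both motifs occurred in 134 of all promoters (0.408%), and lay within 1 letter of each other or overlapped in 9 (0.0274%), which belonged to 8 genes. Of the possible pairs of motifs only this one was counted, at the 1 letter seen in Irs2, so these shares do not test how unusual it is. The Akt1 start shown held 1 FOXO motif, at -161, and its other start none. The promoters of Igf1r, Pik3r1, Mtor, Rps6kb1, Foxo1 and Foxo3 held none of the 4 motifs in this window. A match is a string of letters and not a measured binding site.

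The level of a gene is the log2 intensity of its probe minus the 75th percentile of its array, so that 0 is the 75th percentile, and levels were not compared between genes because probes differ in brightness. The 75th percentile of the 24 mRNA arrays ranged from 507 to 824 intensity units, and 34162 to 41103 of 55681 probes were well above background on an array. The arrays of Tg2576 whole brain at 17 months had the lowest 75th percentiles, from 507 to 612, and 34162 to 35731 probes above background. The arrays lay on 3 slides. Slide 1 held all cortex arrays of 10 months and replicates 1 and 2 of WT cortex at 17 months, slide 2 held the other cortex arrays of 17 months, WT whole brain at 10 months and replicate 1 of Tg2576 whole brain at 10 months, and slide 3 held the rest. Only WT cortex at 17 months and Tg2576 whole brain at 10 months were thus split between slides. A slide term fitted over all groups rested on these split groups, in each of which a lone array was set against the others. Neuronal markers had a mean level between 4.98 and 5.31 on every array. The olfactory bulb list of 10 genes stood at 1.32, 1.46 and -0.39 in the Tg2576 cortices of 10 months and at -0.84, -1.35 and -1.83 in the WT cortices. The cerebellum list stood at -0.17 in replicate 2 of WT cortex at 17 months, against -2.92 and -2.63 in the other two arrays of that group. The part of these tissues in the results below was not tested beyond the values given. The 6 measured markers of plaque-associated microglia stood at 0.57 to 1.21 in Tg2576 cortices of 17 months and at 0.12 to 0.24 in WT cortices of that age. The probe of App is named for the mouse gene and did not differ between the genotypes (log2 difference 0.04, SE 0.03, limma adjusted p = 0.576).

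Across the 8 groups, by the probes used, Irs2 and Pik3r1 varied most and Irs1 least. The range of the 8 group means was 1.03 on the log2 scale (2.04-fold) for Irs2, and for Pik3r1 it was 2.01-fold. It was 0.80 (1.74-fold) for Foxo1, 0.67 (1.59-fold) for Foxo3 and 0.53 (1.45-fold) for Akt1. It was 0.39 for Rps6kb1, 0.34 for Insr, 0.31 for Mtor, 0.30 for Igf1r and 0.20 (1.15-fold) for Irs1. The group means of the other probe of Irs1 ran wider, from -3.78 in WT whole brain at 17 months to -3.28 in Tg2576 cortex at 10 months. For Akt1, Foxo1, Irs2 and Mtor the 4 group means of 10 months were all below the 4 of 17 months. The step between the ages was 0.27 for Akt1 (SD within groups 0.07), 0.28 for Foxo1 (SD 0.11), 0.34 for Irs2 (SD 0.18) and 0.12 for Mtor (SD 0.10). For Irs1, Rps6kb1 and Foxo3 no step between neighbouring group means was larger than the SD within groups.

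**Figure D1:**
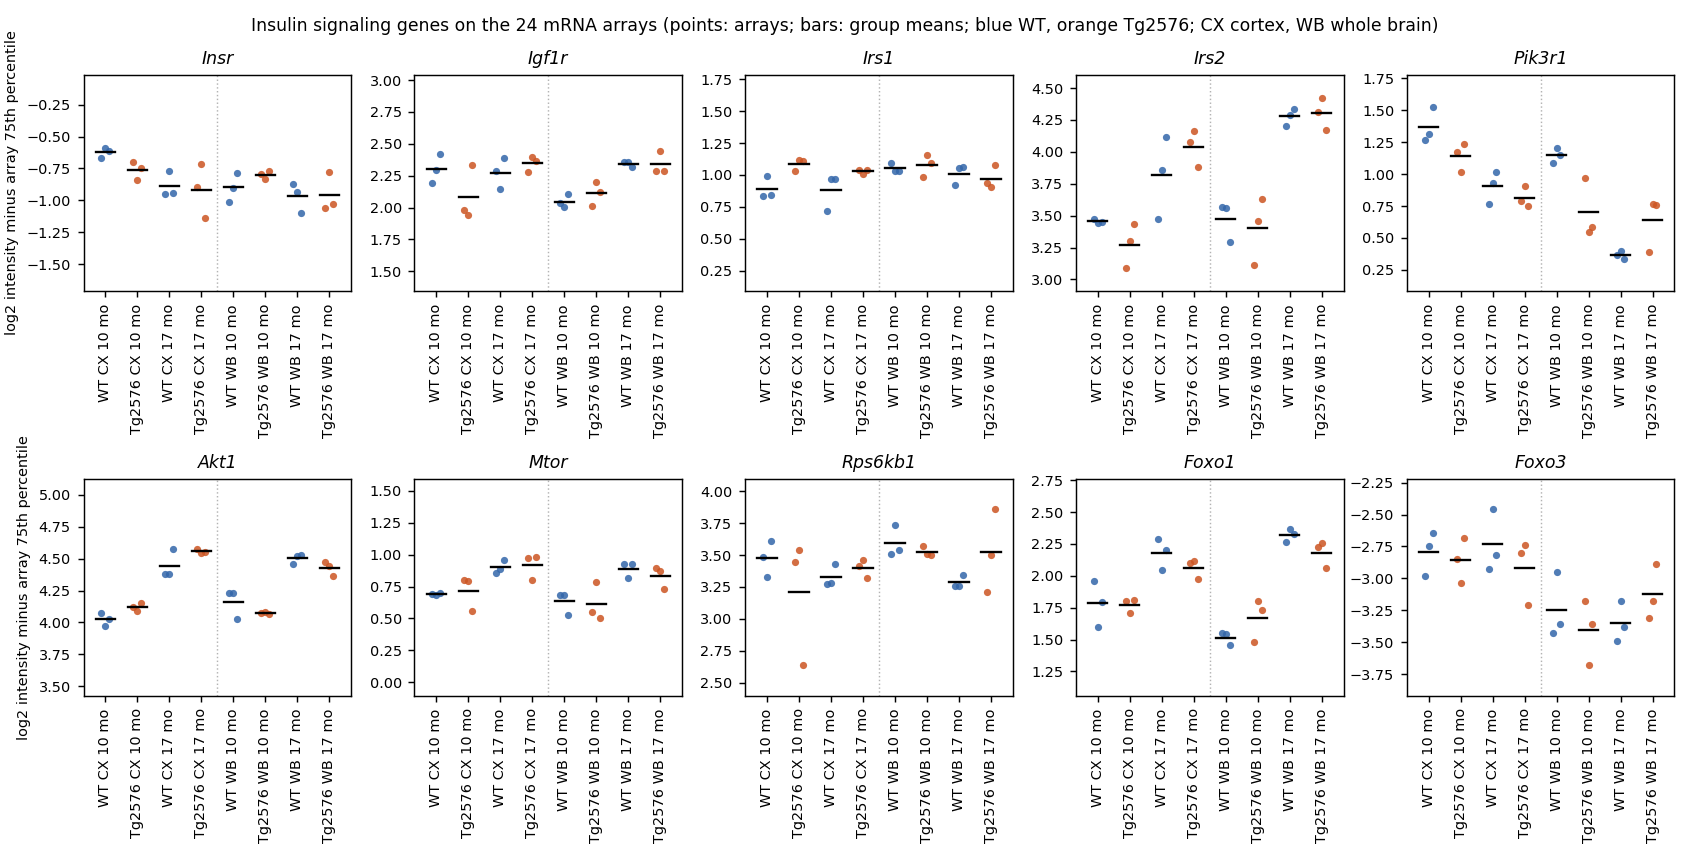
Level of each of the 10 genes, 1 panel a gene (vertical axis: log2 intensity minus the 75th percentile of the array), on the 24 mRNA arrays in the 8 groups of genotype, tissue and age (horizontal axis; CX cortex, WB whole brain), with points for arrays and bars for group means. Irs2, Foxo1 and Akt1 stood higher in the groups of 17 months and Pik3r1 lower, while the group means of Irs1 spanned 0.20.

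More members passed the test for age than for tissue or genotype. Averaged over genotype and tissue, 7 of the 10 genes differed between 17 and 10 months in limma at an adjusted p under 0.05, 5 of them higher at 17 months (Irs2, Foxo1, Akt1, Mtor and Igf1r) and 2 lower (Pik3r1 and Insr), in a comparison that called 46.4% of all 40501 probes tested (21.1% higher and 25.3% lower). The median log2 difference was 0.12 over the members and -0.03 over all probes. The slide as a block drew on the split groups given above. With it, 25.5% of all probes and 4 of the 10 members were called, namely Irs2, Foxo1, Akt1 and Pik3r1. On the same arrays 5 of 5 blood markers were lower at 17 months (median log2 difference -1.59), and 5 of 9 endothelial and vessel markers (median 0.44) and 5 of 8 oligodendrocyte markers (median 0.20) were higher. Of the lists of brain regions, 4 of 5 hippocampus markers (median 0.47), 5 of 7 striatum markers (median 0.27), 2 of 7 thalamus markers (median 0.68) and 2 of 6 midbrain and hindbrain markers (median 0.83) were higher at 17 months. The part of these lists in the values of the members was not tested.

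Irs2, which encodes the insulin receptor substrate whose transcription FOXO factors raise, showed the largest difference. In the cortex at 10 months its level was 3.47, 3.44 and 3.45 in WT and 3.09, 3.30 and 3.43 in Tg2576 mice, and at 17 months it was 3.47, 3.86 and 4.12 in WT and 4.07, 4.16 and 3.88 in Tg2576 mice. In whole brain at 10 months it was 3.57, 3.56 and 3.29 in WT and 3.12, 3.46 and 3.63 in Tg2576 mice, and at 17 months it was 4.21, 4.29 and 4.34 in WT and 4.32, 4.42 and 4.17 in Tg2576 mice. Thus 11 of the 12 arrays of 17 months lay above all 12 of 10 months, and the remaining one, replicate 1 of WT cortex, was as low as the arrays of 10 months. That array and replicate 2, at 3.86, lay on slide 1 with all cortex arrays of 10 months, and replicate 3, at 4.12, on slide 2. Irs2 was 1.63-fold higher at 17 months (log2 difference 0.71, SE 0.07, limma adjusted p = 4.02e-07), and 2.15% of probes differed by more. The difference was 0.42 with the slide as a block (adjusted p = 0.00622).

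Foxo1, a FOXO transcription factor that AKT1 excludes from the nucleus, followed the same direction. In the cortex its level at 10 months was 1.96, 1.60 and 1.80 in WT and 1.80, 1.71 and 1.81 in Tg2576 mice, and at 17 months 2.29, 2.05 and 2.20 in WT and 2.10, 2.12 and 1.97 in Tg2576 mice. In whole brain it was 1.55, 1.54 and 1.46 in WT and 1.48, 1.80 and 1.73 in Tg2576 mice at 10 months, and 2.27, 2.36 and 2.33 in WT and 2.22, 2.26 and 2.06 in Tg2576 mice at 17 months. All 12 arrays of 17 months were above all 12 of 10 months. The log2 difference was 0.50 (SE 0.05, 1.41-fold, limma adjusted p = 1.44e-07), and 0.39 with the slide as a block (adjusted p = 0.00146). Foxo3, its close relative, stood at a median of -3.01 at 10 months and -3.05 at 17 months, and its log2 difference of 0.04 (SE 0.09) did not pass the test (limma adjusted p = 0.712).

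Akt1, the kinase that relays the lipid signal, had the smallest spread within groups. Its level at 10 months ranged from 3.97 to 4.23 (median 4.08, 12 arrays) and at 17 months from 4.37 to 4.58 (median 4.50, 12 arrays), without overlap. In the cortex the levels were 4.07, 3.97 and 4.03 at 10 months and 4.38, 4.38 and 4.58 at 17 months in WT mice, and 4.12, 4.09 and 4.16 against 4.58, 4.54 and 4.55 in Tg2576 mice. In whole brain the levels were 4.23, 4.23 and 4.02 at 10 months and 4.46, 4.52 and 4.53 at 17 months in WT mice, and 4.08, 4.08 and 4.07 against 4.47, 4.44 and 4.37 in Tg2576 mice. The log2 difference over all groups was 0.39 (SE 0.03, 1.31-fold, limma adjusted p = 2.72e-08) and 0.32 with the slide as a block (adjusted p = 0.00028). Akt1 and Foxo1 were the 2 members whose 12 arrays of each age did not overlap, which held for 4.02% of all probes.

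Pik3r1, the regulatory subunit of phosphoinositide 3-kinase, was lower at 17 months. In the cortex its level was 1.27, 1.32 and 1.53 in WT and 1.17, 1.02 and 1.24 in Tg2576 mice at 10 months, and 0.76, 0.93 and 1.02 in WT and 0.79, 0.91 and 0.75 in Tg2576 mice at 17 months. In whole brain it was 1.09, 1.21 and 1.15 at 10 months and 0.36, 0.40 and 0.34 at 17 months in WT mice, whereas the Tg2576 arrays stood at 0.97, 0.54 and 0.59 at 10 months and at 0.39, 0.77 and 0.76 at 17 months. The ages did not overlap in either cortex or in WT whole brain, and overlapped in Tg2576 whole brain. Over all groups Pik3r1 fell by 0.41 on the log2 scale (SE 0.06, 1.33-fold, limma adjusted p = 1.33e-05), and the difference was -0.33 with the slide as a block (adjusted p = 0.0089).

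The remaining members changed little with age. Mtor, the kinase of the mTOR complexes, stood at a median of 0.68 at 10 months and 0.89 at 17 months (log2 difference 0.22, SE 0.04, limma adjusted p = 0.000242). The receptor genes Igf1r and Insr moved in opposite directions, with log2 differences of 0.19 (SE 0.05, adjusted p = 0.00264) and -0.16 (SE 0.05, adjusted p = 0.0124), and their arrays of the 2 ages overlapped. With the slide as a block these 3 did not pass the test (adjusted p = 0.117 for Mtor, 0.496 for Igf1r and 0.31 for Insr). Irs1, the substrate that S6 kinase phosphorylates, differed by -0.05 (95% interval -0.13 to 0.02, adjusted p = 0.257), and Rps6kb1, the S6 kinase itself, by -0.07 (95% interval -0.25 to 0.12, adjusted p = 0.572).

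**Figure D2:**
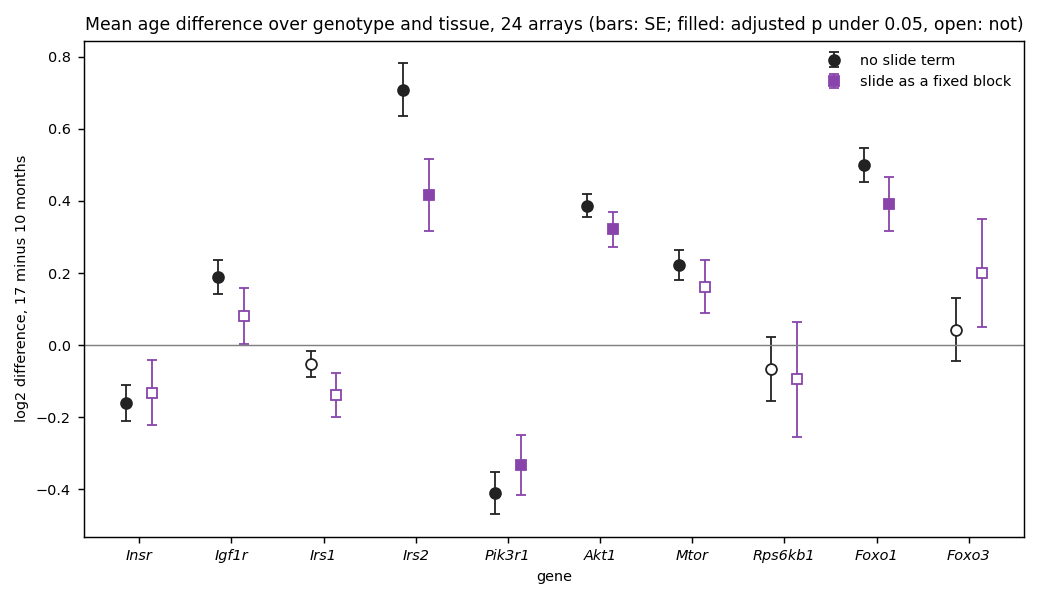
Log2 difference between 17 and 10 months over all 24 mRNA arrays (vertical axis) of each of the 10 genes (horizontal axis), without a slide term (circles) and with the slide as a block (squares), with bars for the SE and filled symbols for an adjusted p under 0.05. Irs2 stood at 0.71 and 0.42, Foxo1 at 0.50 and 0.39, Akt1 at 0.39 and 0.32 and Pik3r1 at -0.41 and -0.33, all filled.

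Within single groups of genotype and tissue, 3 arrays stood against 3. In WT whole brain 7 of the 10 members differed with age, where limma called 27.8% of all probes, namely Irs2 (log2 difference 0.81), Foxo1 (0.80), Akt1 (0.34), Igf1r (0.30) and Mtor (0.26), which were higher at 17 months, and Pik3r1 (-0.78) and Rps6kb1 (-0.31), which were lower, with adjusted p between 0.00395 and 0.0477. The list of midbrain and hindbrain markers stood at -4.46, -3.51 and -3.29 on the younger and at -2.18, -2.46 and -1.74 on the older of these arrays, and each age lay on a slide of its own, so that age and slide cannot be told apart there. When any 1 of the 6 arrays was left out, 3 to 5 members were called. Irs2, Pik3r1 and Foxo1 were called in 6 of the 6 settings, Igf1r in 4, Akt1 in 3, and Mtor and Rps6kb1 in 0. In Tg2576 whole brain 3 members were called, Irs2 (0.90, adjusted p = 0.0219), Foxo1 (0.51, adjusted p = 0.0395) and Akt1 (0.35, adjusted p = 0.0332), where 12.1% of all probes were called. On slide 3 alone, which held both ages of that group, the differences were 0.76, 0.41 and 0.35, and none of the 3 passed the test. With 1 array left out, Irs2 was called in 2 of 6 settings, Akt1 in 1 and Foxo1 in 0.

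In Tg2576 cortex Irs2 (0.76, adjusted p = 0.0244) and Akt1 (0.43, adjusted p = 0.0221) were called, 2 of the 10 members beside 10.3% of all probes. Age and slide cannot be told apart in that group either, and the olfactory bulb list stood at -1.68, -1.23 and 0.45 on its older arrays, which overlapped with the younger ones given above. Of the 6 settings that left out 1 array, the call of Irs2 held in 2 and that of Akt1 in 1. In WT cortex none of the 10 passed the test, where 4.55% of all probes did, and 5 had an unadjusted p under 0.05. The differences nearest to the threshold there were those of Akt1 (0.42, SE 0.09, adjusted p = 0.0514) and Pik3r1 (-0.47, SE 0.11, adjusted p = 0.063), and on slide 1 alone they were 0.35 and -0.52. Irs2, Foxo1, Akt1 and Mtor were higher at 17 months in 4 of 4 groups, Pik3r1, Insr and Irs1 lower in 4 of 4, and Igf1r higher in 3 of 4.

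The change with age was not shown to differ between the tissues or the genotypes for any member. The interaction of age and tissue called 0 of 10 members (1 at an unadjusted p under 0.05) and 0.388% of all probes, and the largest member value was that of Foxo1, whose age difference was smaller in the cortex by a log2 difference of -0.31 (SE 0.09, limma adjusted p = 0.108). The interaction of genotype and age called 0 of 10 in the cortex (0 of 40270 probes, 0%) and 0 of 10 in whole brain (0 of 38499 probes, 0%), at unadjusted p under 0.05 giving 0 and 2 members. Pik3r1 in whole brain had the largest value, a log2 difference of 0.72 (SE 0.18, limma adjusted p = 0.189), and without replicate 1 of the Tg2576 mice of 10 months it was 0.85 and passed the test. Leaving out that array left the Tg2576 arrays of 10 months on slide 3 and the WT arrays of that age on slide 2. Genotype and slide cannot be told apart in that setting.

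**Figure D3:**
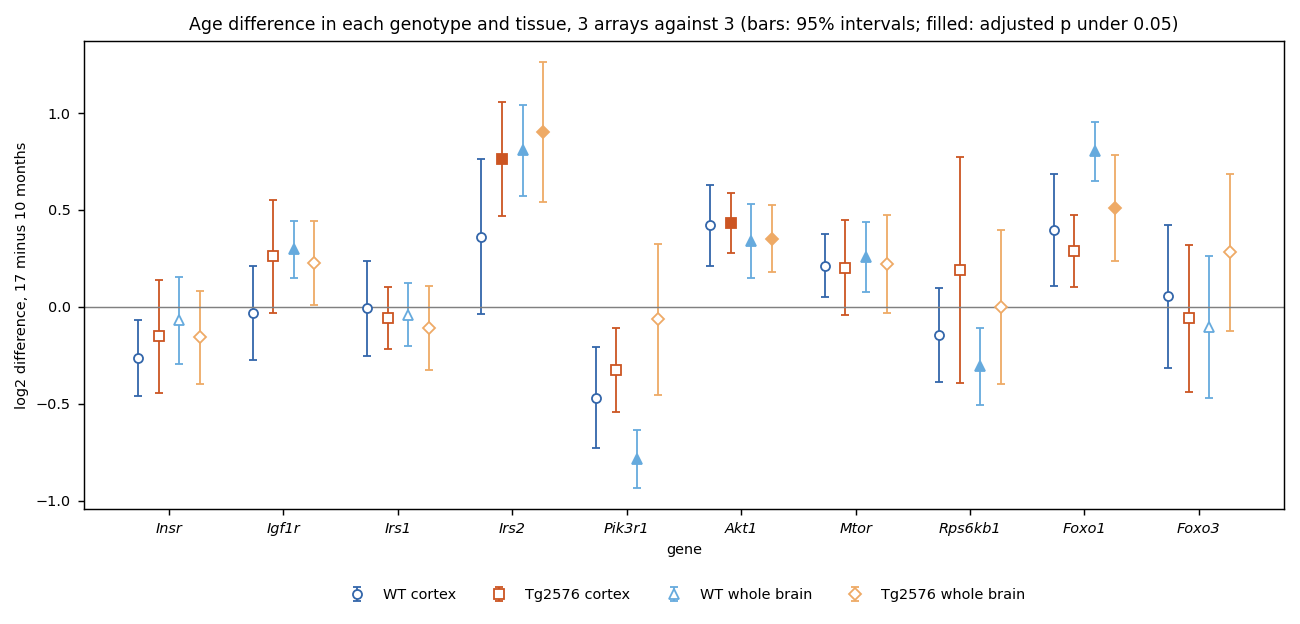
Log2 difference between 17 and 10 months (vertical axis) of each of the 10 genes (horizontal axis) in the 4 groups of genotype and tissue, 3 arrays of each age, with bars for 95% intervals and filled symbols for an adjusted p under 0.05. Irs2 ranged from 0.36 to 0.90 and Akt1 from 0.34 to 0.43 over the 4 groups, while Pik3r1 ranged from -0.78 to -0.06.

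The other probes of 4 members gave a second reading. For Foxo1 the other probe was also higher at 17 months over all groups (log2 difference 0.18, SE 0.04, limma adjusted p = 0.00343), less than the 0.50 of the probe used, and the 2 probes correlated at r = 0.70 over the 24 arrays. In single groups the other probe differed by 0.29 in WT cortex, 0.0018 in Tg2576 cortex, 0.26 in WT whole brain and 0.15 in Tg2576 whole brain. It passed the test in none of them. The probe of Rps6kb1 with the highest signal differed by -0.07 with age and did not pass the test, whereas 2 other probes, above background on all 24 arrays, were lower at 17 months, by log2 differences of -0.20 (SE 0.03, adjusted p = 4.03e-05) and -0.17 (SE 0.05, adjusted p = 0.00945). In single groups the first of these passed the test only in Tg2576 whole brain (-0.42, limma adjusted p = 0.0376). The second passed it only in WT whole brain (-0.38, limma adjusted p = 0.0272). The remaining probe of Rps6kb1 was well above background on 5 of the 24 arrays, all of them cortices of 10 months. It entered the test only through those groups, so no difference is given for it. Over the 24 arrays the 2 other probes of Rps6kb1 correlated with the probe used at r = 0.15 and 0.19, and the other probe of Irs1 at -0.05, so that the probes of these genes did not report 1 common level. The other 2 probes of Insr (r = 0.45 and 0.52) did not pass the test of age. The other probe of Irs1 did not pass it over all groups (-0.12, limma adjusted p = 0.15), but was lower at 17 months in WT whole brain (-0.26, limma adjusted p = 0.0322).

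**Figure D4:**
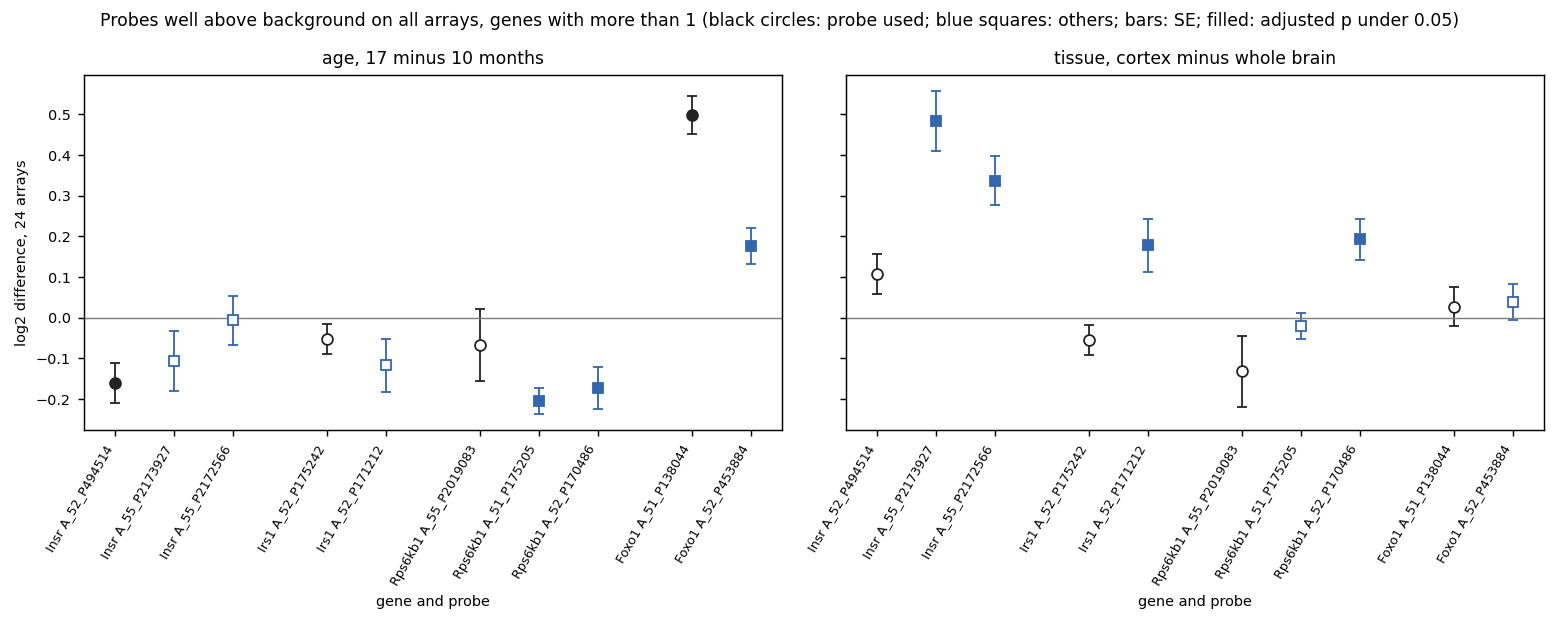
Log2 difference over all 24 mRNA arrays (vertical axis) of the probes of the 4 genes with more than 1 (horizontal axis), leaving out the 1 probe of Rps6kb1 that was not above background on all arrays, between the ages (left) and between the tissues (right), with circles for the probe used, squares for the others, bars for the SE and filled symbols for an adjusted p under 0.05. With age the probe of Rps6kb1 used stood at -0.07 and its other 2 at -0.20 and -0.17.

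Between the tissues fewer members differed. Averaged over genotype and age, limma called 3 of 10 members and 37.5% of all probes. Foxo3 was higher in the cortex by 0.46 (SE 0.09, 1.37-fold, adjusted p = 0.000547), with cortex arrays from -3.21 to -2.46 (median -2.81) and whole brain arrays from -3.68 to -2.88 (median -3.33). Pik3r1 was higher in the cortex by 0.34 (SE 0.06, adjusted p = 0.000197) and Irs2 was lower there by a log2 difference of -0.22 (SE 0.07, adjusted p = 0.0256). In all 3 genes the arrays of the tissues overlapped. Of the marker lists, 5 of 6 midbrain and hindbrain genes and 5 of 9 cerebellum genes were lower in the cortex and 6 of 7 striatum genes higher. The slide as a block again drew on the split groups given above. With it none of the 10 members was called, beside 0.652% of all probes. The values were 0.14 for Foxo3, 0.19 for Pik3r1 and 0.37 for Irs2, whose sign turned. The probe of Insr used did not pass the test between the tissues (0.11, adjusted p = 0.0957), whereas its other 2 probes were higher in the cortex, by 0.48 (adjusted p = 9.39e-05) and 0.34 (adjusted p = 0.000357). The other probe of Irs1 was also higher in the cortex (0.18, adjusted p = 0.0374), and so was 1 other probe of Rps6kb1 (0.19, adjusted p = 0.00633), while the probes used for these genes did not pass the test.

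Within single groups, the tissue comparison called Pik3r1 in WT mice of 17 months, and no other member in any of the 4. There its level was 0.76, 0.93 and 1.02 in the cortex and 0.36, 0.40 and 0.34 in whole brain (log2 difference 0.54, SE 0.09, limma adjusted p = 0.0251), where 10.3% of all probes were called. The call was lost without replicate 2 of that cortex group, the array with the high cerebellum list, and without each of 4 other arrays of the comparison. Foxo3 in the same comparison differed by 0.62 (SE 0.15, adjusted p = 0.0522). The comparisons in WT mice of 10 months, Tg2576 mice of 10 months and Tg2576 mice of 17 months called 0 of 10 members each, beside 0.0101%, 0% and 1.97% of all probes, and 5, 2 and 0 members had an unadjusted p under 0.05.

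The genotype comparison in the cortex at 10 months is the one behind the gene network that the study related to insulin signaling. The study's further evidence for S6K1 as a target came from transfected SH-SY5Y cells, by AGO2 immunoprecipitation, reporter, qRT-PCR and western blot assays. These arrays do not measure what those assays did. In the cortex comparison limma called 0 of 10 members and 0 of 39643 probes (0%), and at an unadjusted p under 0.05 it gave 1 member, Irs1, beside 9.94% of all probes. The methods' t-test gave 3 members at an unadjusted p under 0.05 (Insr, Irs1 and Akt1), 0 at the methods' threshold, which adds a fold change above 1.5 (0.817% of all probes), and 0 after Benjamini-Hochberg adjustment. The arrays of the genotypes did not overlap in 5 of 10 members, beside 17.2% of all probes. Irs1 was at 0.83, 0.99 and 0.84 in WT and at 1.03, 1.12 and 1.11 in Tg2576 mice, so that all Tg2576 arrays were above all WT arrays (log2 difference 0.20, SE 0.07, 95% interval 0.02 to 0.37, limma adjusted p = 0.484). The other probe of Irs1 differed by 0.08 (SE 0.09, adjusted p = 0.756).

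Insr stood at -0.67, -0.59 and -0.61 in WT and at -0.70, -0.84 and -0.75 in Tg2576 mice of that comparison (log2 difference -0.14, SE 0.07, adjusted p = 0.542). Irs2 stood at 3.47, 3.44 and 3.45 in WT and at 3.09, 3.30 and 3.43 in Tg2576 mice (log2 difference -0.18, adjusted p = 0.572), and Pik3r1 differed by -0.23 (adjusted p = 0.515) and Akt1 by 0.10 (adjusted p = 0.611). In these 4 genes the arrays of the genotypes did not overlap either, and the differences did not pass the test. The olfactory bulb list separated the same arrays, as given above, and its part in these values was not tested.

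Rps6kb1, the S6 kinase gene that the study followed as a target of miR-200b and miR-200c, stood at 3.48, 3.33 and 3.61 in WT and at 3.45, 3.54 and 2.64 in Tg2576 cortices of 10 months. A single array, Tg2576 replicate 3, was low and the other two lay among the WT arrays. The log2 difference was -0.27 (SE 0.25, 95% interval -0.88 to 0.34, limma adjusted p = 0.733), and without that array it was 0.02. The next brightest probe of Rps6kb1 read 0.62, 0.69 and 0.72 in WT and 0.60, 0.52 and 0.50 in Tg2576 mice, with no low value in replicate 3 alone (log2 difference -0.14, SE 0.07, adjusted p = 0.528), and the third read -1.95, -1.75 and -1.74 against -1.94, -1.81 and -1.85. Neither of these probes passed the test.

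On the miRNA arrays of the same groups, miR-200b was at -3.08, -2.93 and -4.35 in WT and at 0.72, 0.55 and -2.05 in Tg2576 cortices of 10 months, on a log2 scale set to the 75th percentile of the probes detected on all arrays. miR-200c was at -5.24 and -5.25 and at the floor of -5.67 in WT, and at -0.96, -1.20 and -3.92 in Tg2576 cortices. The group means differed by 3.19 and, with that array at the floor, by 3.36 on the log2 scale. The Tg2576 array numbered 3 had the lowest miR-200b and miR-200c of its group on the miRNA arrays, and the array with that number had the lowest Rps6kb1 on the mRNA arrays, but the labels do not say that the numbers link the assays. In the other 6 groups the means of miR-200b lay between -4.54 and -2.08. The highest single arrays were in whole brain of 10 months, at 0.47 in Tg2576 and at 0.41 in WT mice. The means of miR-200c in these groups lay between -5.28 and -3.66, with arrays at the floor in each group. Its highest single arrays there were in whole brain of 10 months, at -1.29 in WT and at -1.57 in Tg2576 mice.

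**Figure D5:**
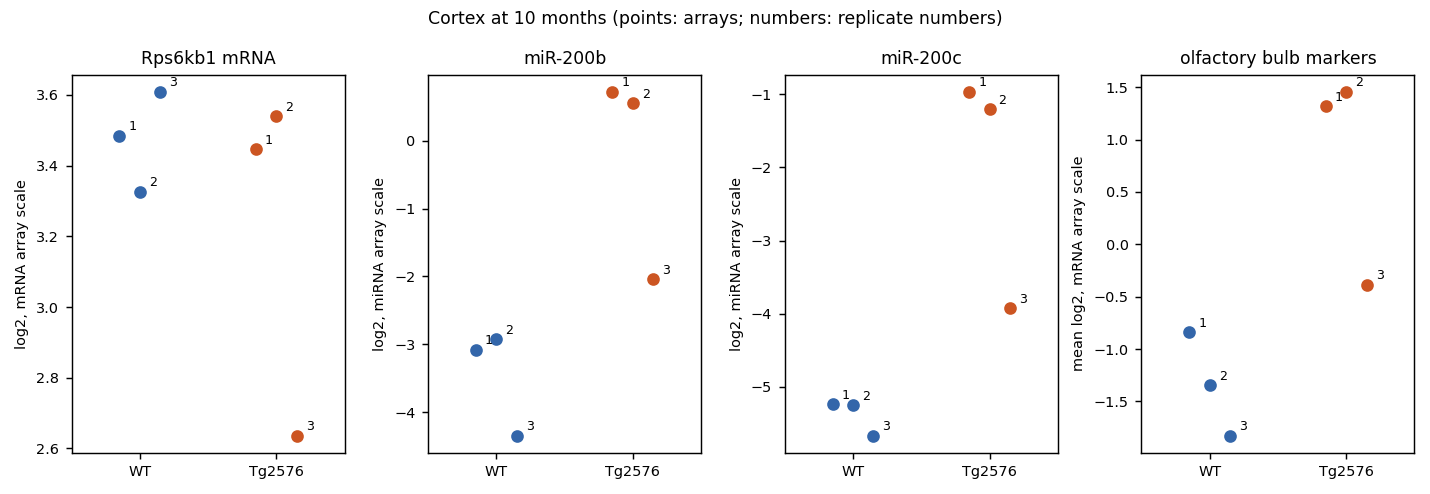
Rps6kb1, miR-200b, miR-200c and the mean of 10 olfactory bulb markers (vertical axes, log2 on the scale of the mRNA or the miRNA arrays) in the WT and Tg2576 cortices of 10 months (horizontal axes), with points for arrays and numbers for replicates. The Tg2576 array numbered 3 held the lowest Rps6kb1, at 2.64, and on the miRNA arrays and in the olfactory bulb list the array of that number stood lowest of the Tg2576 group.

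The other 3 genotype comparisons called 0 of 10 members as well. They called 0 of 38905 probes (0%) in the cortex at 17 months, 0 of 38127 (0%) in whole brain at 10 months and 1 of 36990 (0.0027%) in whole brain at 17 months, and gave 0, 1 and 0 members at an unadjusted p under 0.05. The exception was Pik3r1 in whole brain at 10 months, at 1.09, 1.21 and 1.15 in WT and at 0.97, 0.54 and 0.59 in Tg2576 mice (log2 difference -0.45, SE 0.13, limma adjusted p = 0.431). The 2 low Tg2576 arrays lay on slide 3 and all WT arrays on slide 2, and on slide 2 alone the difference was -0.18. Averaged over tissue and age, the genotype differences of the 10 members ranged from -0.12 for Pik3r1 (95% interval -0.24 to -0.00201) to 0.08 for Irs1 (95% interval 0.00495 to 0.16), 0 of 10 were called beside 0.212% of all probes, and 2 had an unadjusted p under 0.05.

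The other genes of the pathway were described from 9 lists with 117 genes, of which 112 were tested over all groups. Each was read by its brightest probe, while the share of all probes also covers dimmer probes and probes without a symbol. The counts were made without a slide term. With the slide as a block, 25.5% of all probes were called for age and 0.652% for tissue, and the pathway genes were not counted that way. With age 48 of the 112 were higher and 20 lower at 17 months (60.7%, beside 46.4% of all probes). Those with the largest differences were Foxo6 (log2 difference 0.99, SE 0.06, limma adjusted p = 1.9e-09), a FOXO factor of the brain, Eif4ebp2 (0.77), a repressor of cap-dependent translation, Gab1 (0.67), a docking adaptor, Rps6ka1 (0.65), a kinase downstream of ERK, and Trib3 (0.64), a pseudokinase that binds AKT.

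By role, these counts stand beside 21.1% of all probes higher and 25.3% lower, and 10 of 16 other receptors and adaptors and 8 of 11 feedback inhibitors were higher at 17 months and 0 of either list was lower. Of the mTOR complex and TSC genes 6 were higher and 2 lower of 11, of the S6 kinase and translation genes 5 and 2 of 11, and of the phosphoinositide 3-kinase and phosphatase genes 4 and 2 of 10. Of the genes of AKT, PDK1, GSK3 and the AKT phosphatases 4 were higher and 2 lower of 9. The ligands and binding proteins had 3 in each direction of 10, the Ras and MAPK arm 4 higher and 5 lower of 15, and the other FOXO factors and FOXO target genes 4 in each direction of 19 (42.1%, beside 46.4% of all probes). Between the tissues, again without a slide term, 12 pathway genes were higher and 27 lower in the cortex (34.8%, beside 37.5% of all probes). The largest called differences were those of Igf2 (-0.49), the growth factor made by meninges and vessels, the catalase gene Cat (-0.43) and the insulin receptor related receptor Insrr (-0.39). None of the pathway genes was called in a genotype comparison.

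By single group, 30 pathway genes were higher and 5 lower at 17 months in WT whole brain of 113 tested (31%, beside 27.8% of all probes), with Igf2 (1.14), Eif4ebp2 (1.10) and Foxo6 (1.05) first, and 16 and 3 in Tg2576 whole brain (16.8%, beside 12.1%), with Foxo6 (1.03) and Eif4ebp2 (0.88) first. In Tg2576 cortex 11 were higher and 3 lower of 113 (12.4%, beside 10.3%), led by Gab1 and Foxo6, and in WT cortex 5 and 1 of 114 (5.26%, beside 4.55%), among them Foxo6 (1.14), Trib3 (0.74), Socs3 (0.72), an inhibitor of receptor signaling, Gsk3a (0.55) and, lower at 17 months, Rictor (-0.43), the scaffold of mTOR complex 2.

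The genes whose levels followed those of 4 members most closely over the 24 mRNA arrays were found among 14593 genes well above background on all of them. These are descriptions over arrays that share age and slide, made with the probe used for each gene. For Rps6kb1 and Irs1 the other probes hardly followed that probe, as given above, so their neighbours are those of the probe used. Irs2 was followed by Zbtb7a (r = 0.971), Slc3a2 (0.962) and Daxx (0.961), and Insr by Smarca5-ps (0.842), Ube4a (0.830) and Cul3 (0.812). For Rps6kb1 the nearest were Psma7 (0.892), a proteasome subunit, Nsa2 (0.835) and Gm6710 (0.816), and for Irs1 they were Tspan11 (0.731), Chrac1 (0.719) and Nrip3 (0.707).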

How the data were processed

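Total RNA of 24 mRNA and 24 miRNA samples was hybridized to 1-colour Agilent arrays. The authors read the spots with Agilent Feature Extraction 10.7.3.1, per the submitters' processing notes, and deposited each spot's intensity, background-subtracted and not normalized between arrays, with raw median intensities and the total signal per miRNA. The authors also deposited log2 values, which on each mRNA array equalled the log2 intensity less a constant, to 0.01, for 99.8% of probes or more.

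R 4.3.3 and the package data.table (version 1.17.8) were used. Spots marked as outliers were dropped, spots of a probe averaged, and each array's 75th percentile subtracted on the log2 scale. Gene symbols came from RefSeq transcripts. Probes entered a test if 2 arrays or more in one of its groups had them well above background. limma 3.58.1 was fitted across all probes tested, on the 6 arrays of a comparison or, for means over groups and interactions, on all arrays concerned, with Benjamini-Hochberg adjustment at 0.05, and was tested on simulated data first. miRNA values were scaled over 402 probes, those well above background throughout, and floored at -5.67. Array signal over background and 3 arrays per group limit the precision.

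Named genes were the 10 members, in each comparison up to 5 other pathway genes with the largest called difference, the 3 genes most correlated with Rps6kb1, Irs1, Irs2 and Insr, and miR-200b and miR-200c. Members and lists were chosen with earlier results of these data known. Same-numbered replicates were checked for pairing by the correlation of their deviations from the group means, which ranged from -0.13 to 0.32, and in 0 of 12 comparisons were all 3 pairs over 0.1. Alternatives were quantile normalization, normexp on median spot signals with an offset of 50, no filter, the authors' log2 table, all arrays in 1 model, replicate or slide blocks, the methods' t-test, other probes and leaving out each array. Within-slide values were added after seeing the data.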

Additional observations from a re-analysis of the deposited data

How the results depend on the processing

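Values here are counts of the 10 members called. With age in WT cortex none was called, against 2 with normexp, 3 with all 24 arrays in 1 model (Pik3r1, Akt1 and Foxo1) and 1 with the dimmest Rps6kb1 probe, which entered only through the younger arrays, where it was above background, so that this call says nothing of age. In Tg2576 cortex 2 became 4 with normexp, 0 without the filter and 1 by the methods' t-test, and 0 to 2 when 1 array was left out, with a change for each array except Tg2576 replicate 3 of 10 months. In WT whole brain 7 became 3 without the filter and 3 to 5 when 1 array was left out, Irs2, Pik3r1 and Foxo1 among them, the 3 arrays of 17 months having the largest effect. In Tg2576 whole brain 3 became 1 with the slide as a block (Irs2), 1 by the methods' t-test (Akt1), 0 within slide 3 and 0 to 2 when 1 array was left out, lower for each array except Tg2576 replicate 3 of 17 months. Between the tissues, 0 became 1 with normexp in WT mice of 10 months, and 2 with all 24 arrays in 1 model or 0 to 1 by array left out in Tg2576 mice of 10 months. In WT mice of 17 months 1 became 3 with all 24 arrays, 2 with the other probe of Irs1 or a dimmer probe of Insr, 0 without the filter, with the slide as a random block or by the methods' t-test, and 0 to 2 by array left out. Over all groups the tissue count of 3 became 5 with normexp, 0 with the slide as a block and 2 to 4 by array left out, and the age count of 7 became 4 with the slide as a block and stayed at 7 when any array was left out. The interaction of genotype and age in whole brain gave 0 to 1, the 1 being Pik3r1 without Tg2576 replicate 1 of 10 months, where genotype and slide cannot be told apart. The causes were not tested, apart from those built into the alternative, such as fewer arrays or more probes.

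By the check described above the replicate numbers were not shown to pair the samples, which does not exclude animals shared between the tissues. With the replicate number as a block, the age counts were 0 in WT cortex, 0 in Tg2576 cortex, 3 in WT whole brain and 0 in Tg2576 whole brain, the tissue count in WT mice of 17 months was 0, and the other counts were as without the block.

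The direction turned for Rps6kb1 between the genotypes in the cortex at 10 months without Tg2576 replicate 3 (0.0193, in a range from -0.43 to 0.0193 by array left out) and for Irs2 between the tissues with the slide as a block (0.37). The median range of the member levels over groups was 0.46, and 0.60 with a dimmer probe of Insr or with the dimmest of Rps6kb1, whose levels outside the cortices of 10 months were not above background. Of the other values, 849 for single genes kept their direction and their side of the threshold, and 20 single-gene values passed it in addition and 90 no longer did. The counts of calls and the ranges stayed near their values above in 416 settings (counts within 1.5 times) and moved in 48. No slide block could be fitted for genotype in the cortex at 10 months and whole brain at 17 months, on 1 slide each, or for age in Tg2576 cortex and WT whole brain and tissue in WT mice of 10 and Tg2576 mice of 17 months, whose groups each had a slide of their own.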
